A study of Mus musculus with 7 samples.

Results

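The 6 mouse Dlx genes lie on 3 chromosomes in 3 pairs, Dlx1 with Dlx2, Dlx3 with Dlx4, and Dlx5 with Dlx6, and open chromatin around them was read from 7 ATAC-seq peak lists. A window was drawn for each pair from 50 kb outside one gene to 50 kb outside the other, and a peak belonged to it if its summit, the position of its strongest signal, lay inside. On GRCm38 (mm10) the windows are chr2:71478113-71596754 for Dlx1 and Dlx2, chr11:95070117-95196294 for Dlx3 and Dlx4, and chr6:6813334-6932068 for Dlx6 and Dlx5. The windows held 341 of the 408868 autosomal peaks in the 7 lists. Peaks that shared at least 1 bp across libraries were merged, which gave 78 regions in the windows out of 128642 on the autosomes: 20 around Dlx1-Dlx2, 36 around Dlx3-Dlx4 and 22 around Dlx5-Dlx6. Of the 78 regions, 9 lay between the genes of a pair, 13 inside a Dlx gene and 56 in the flanks.

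ATAC-seq uses a transposase to cut and tag accessible DNA. Ectoderm was peeled from the mesenchyme of first pharyngeal arches at embryonic day 11.5 after protease treatment (2 libraries). Sox2-positive cells, called dental epithelial stem cells in the labels, were sorted from the labial cervical loop of the postnatal day 2 lower incisor, from mice in which the Sox2 promoter drives a green fluorescent protein (2 libraries). Whole lower incisor, whole lower first molar and whole upper first molar, also of postnatal day 2, are single libraries. No genotype other than the reporter, no strain and no treatment is named, and nothing says whether the replicates came from separate animals or from pools. The ectoderm label does not separate upper-jaw from lower-jaw parts of the arch. In these bulk tissues fewer cells of a type and less accessibility per cell cannot be told apart.

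Dlx genes encode homeodomain transcription factors, the vertebrate relatives of fly Distal-less. Each pair is transcribed tail to tail, and enhancers in the short interval between the genes are known to act on both. In the neural crest mesenchyme of the arches Dlx1 and Dlx2 are expressed in upper and lower jaw, while Dlx5 and Dlx6, downstream of endothelin signalling, mark the lower jaw. Loss of Dlx1 and Dlx2 together removes upper molars, and DLX3 mutation causes tricho-dento-osseous syndrome, with defects of hair, enamel and bone. That jaw code belongs to mesenchyme, whereas the ectoderm libraries are epithelial and the whole teeth mix cell types.

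To show how starts within the windows differed, 5 promoters are given as the 250 bp upstream of a transcription start (RefSeq, GRCm38.p6). The first set is the Dlx1 and Dlx2 promoters, which were wholly under a peak in all 7 libraries, beside a Dlx6os1 promoter under a peak in none. Dlx6os1, also known as Evf2, is a long non-coding RNA of the Dlx5-Dlx6 locus, and this annotated start lies between Dlx6 and Dlx5. A region that begins within 1 kb of it, chr6:6870045-6871081, was listed in Sox2-positive replicate 1, incisor, lower molar and upper molar. The promoters are Dlx1 at chr2:71529195-71529444 on the plus strand, Dlx2 at chr2:71546755-71547004 on the minus strand and Dlx6os1 at chr6:6869534-6869783 on the minus strand. Capitals mark every match, on either strand, to any of 5 motifs: the core bound by many homeodomains (TAATTA), the box bound by the factor NF-Y (CCAAT), the GC box of the Sp family (GGGCGG), the palindromic E-box of many basic helix-loop-helix factors (CACGTG) and the TATA box, spelled here TATAAA.
Dlx1: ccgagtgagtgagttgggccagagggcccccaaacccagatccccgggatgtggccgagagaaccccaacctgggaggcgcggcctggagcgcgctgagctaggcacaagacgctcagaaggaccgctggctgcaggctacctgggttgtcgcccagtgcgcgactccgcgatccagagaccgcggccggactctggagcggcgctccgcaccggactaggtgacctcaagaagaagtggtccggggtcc
Dlx2: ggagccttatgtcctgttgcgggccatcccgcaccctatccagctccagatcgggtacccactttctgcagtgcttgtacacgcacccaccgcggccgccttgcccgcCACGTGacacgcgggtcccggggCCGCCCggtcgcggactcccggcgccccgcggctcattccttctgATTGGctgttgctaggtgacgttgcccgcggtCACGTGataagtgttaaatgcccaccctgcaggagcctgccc
Dlx6os1: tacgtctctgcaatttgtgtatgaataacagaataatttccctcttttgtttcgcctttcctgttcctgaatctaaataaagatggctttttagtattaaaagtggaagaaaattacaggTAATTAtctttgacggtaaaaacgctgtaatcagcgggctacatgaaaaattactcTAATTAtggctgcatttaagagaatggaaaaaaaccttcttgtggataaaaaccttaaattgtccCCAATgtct

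The Dlx1 promoter, at 68.0% G and C, held none of the 5 motifs. The Dlx2 promoter, at 66.4%, held 2 palindromic E-boxes, 1 NF-Y box and 1 GC box. Of 32851 promoters of the same length in the RefSeq table, 6.02% held that E-box, 33.8% the NF-Y box and 32.7% the GC box. The Dlx6os1 promoter had 33.2% G and C and held 2 homeodomain cores and 1 NF-Y box, the homeodomain core being present in 4.84% of promoters. The TATA box, found in 12.4% of promoters, was in none of these 3. A match describes letters and is not a binding site.

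The second set is a pair of non-coding RNA promoters whose 250 bp were partly under a peak in the whole teeth and in no ectoderm or Sox2-positive library. That holds for these 250 bp only. Within 1 kb of the Dlx4os start, the region chr11:95144890-95146589 had a peak in all 7 libraries. The promoter of Dlx4os, a non-coding RNA that starts inside Dlx4, is at chr11:95144803-95145052 on the plus strand. The promoter of Gm36857, a predicted gene in the flank of Dlx2, is at chr2:71591079-71591328 on the plus strand. Capitals here mark bases under a peak in all 3 whole-tooth libraries.
Dlx4os: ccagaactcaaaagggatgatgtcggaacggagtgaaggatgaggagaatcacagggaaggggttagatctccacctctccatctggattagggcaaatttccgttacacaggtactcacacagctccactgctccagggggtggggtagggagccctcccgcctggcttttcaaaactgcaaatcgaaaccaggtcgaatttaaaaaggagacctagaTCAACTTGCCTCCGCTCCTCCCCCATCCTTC
Gm36857: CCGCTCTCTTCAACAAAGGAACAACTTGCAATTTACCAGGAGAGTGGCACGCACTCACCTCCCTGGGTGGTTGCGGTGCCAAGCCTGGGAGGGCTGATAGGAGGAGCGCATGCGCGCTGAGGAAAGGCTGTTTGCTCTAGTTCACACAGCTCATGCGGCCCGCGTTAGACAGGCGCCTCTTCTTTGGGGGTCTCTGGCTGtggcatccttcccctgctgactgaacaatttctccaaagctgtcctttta

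Of the 250 bp at Dlx4os, 156 were under a peak in incisor, 31 in lower molar and 163 in upper molar, all at the end nearest the start. At Gm36857 it was 200 in incisor, 216 in lower molar and 215 in upper molar. Neither window held any of the 5 motifs. The intervals between the paired genes are described by position, since no genome sequence was used here.

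**Figure D1:**
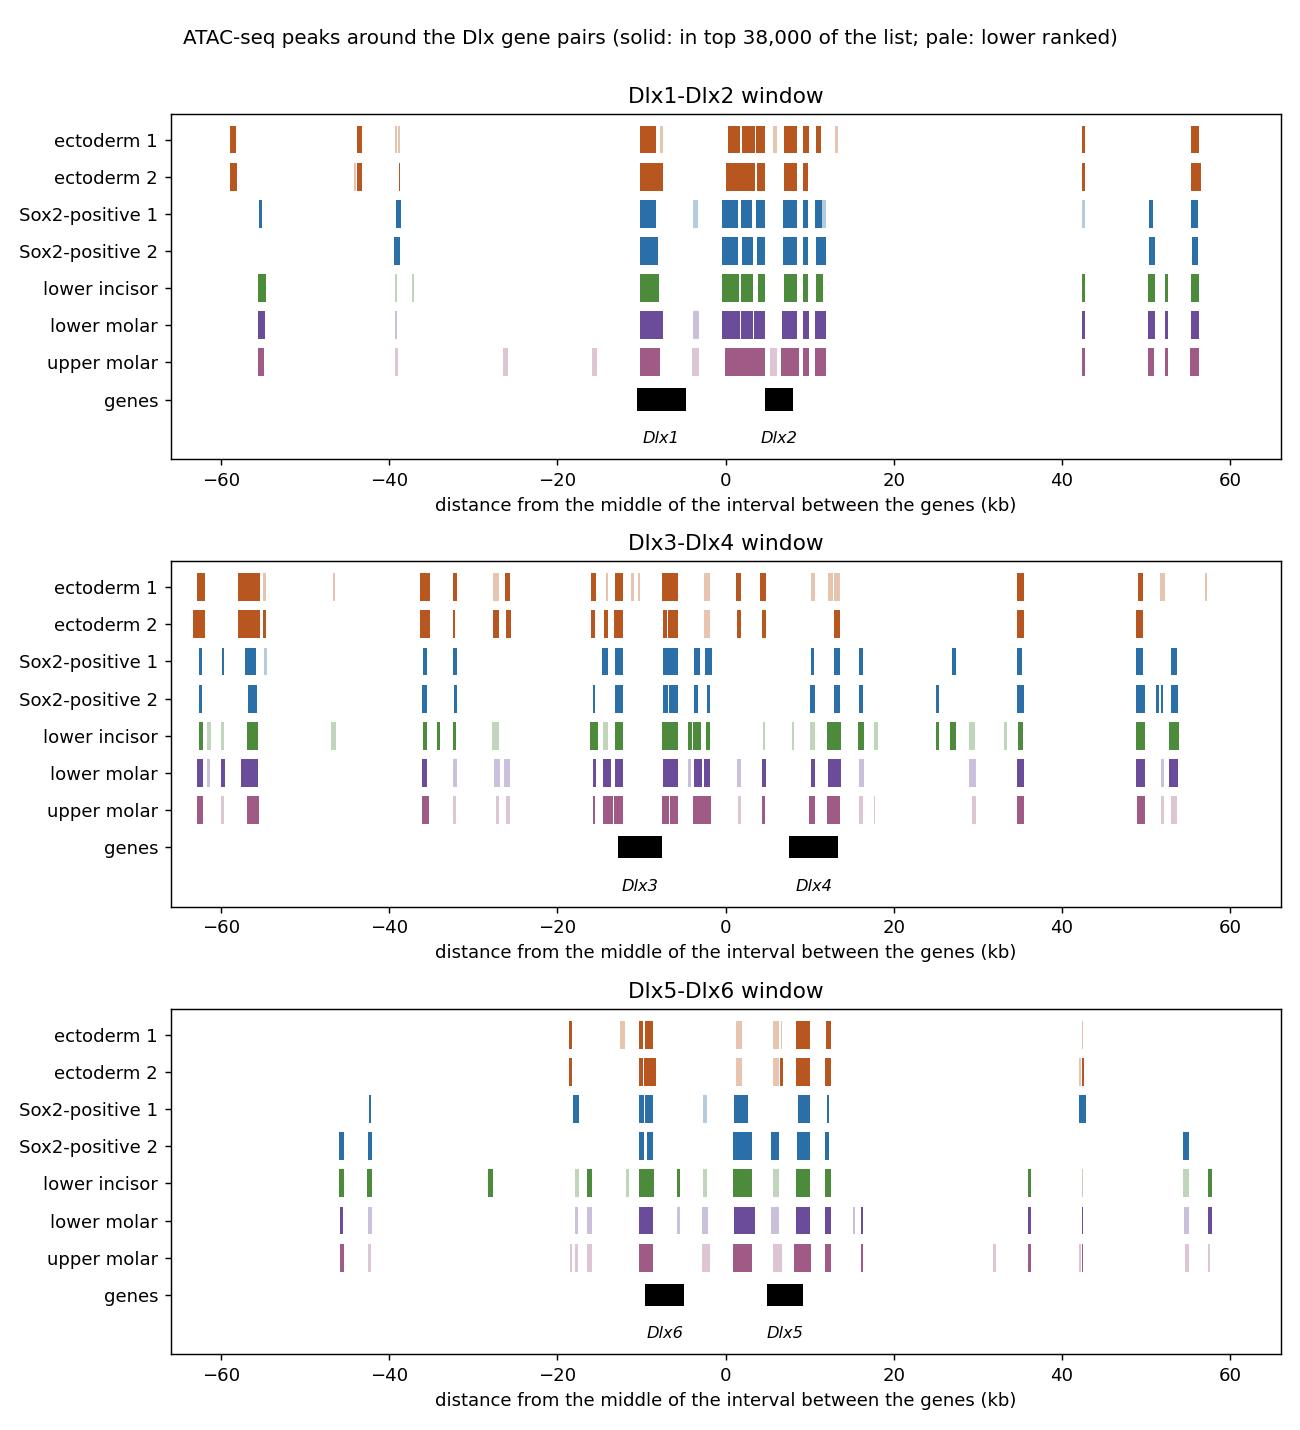
Peaks of the 7 libraries around the 3 Dlx pairs, 1 line per library, with distance in kb from the middle of the interval between the paired genes on the horizontal axis; solid boxes are peaks in the top 38,000 of that library's list and pale boxes rank lower. Between Dlx5 and Dlx6 the 2 ectoderm lines hold a pale box where the 5 postnatal lines hold a wider solid one, and near the middle of the Dlx1-Dlx2 panel all 7 lines hold solid boxes.

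Every Dlx gene had a peak at its start in every library, 42 of 42 combinations of gene and library, and at the outer gene ends Dlx5 carried the best-ranked of them in 6 of 7 libraries (Dlx1 in Sox2-positive replicate 2). Over 20665 autosomal protein-coding genes, 55.7% had such a peak in all 7 lists. Within single lists the share of genes was 68.2% and 65.9% for ectoderm, 59.7% and 58.4% for Sox2-positive cells, 62.2% for incisor, 63.6% for lower molar and 63.5% for upper molar. A start counted if a peak lay within 1 kb. The RefSeq starts of Dlx1 and Dlx2 were used, and for the other 4 genes either gene end. At the end of each gene that faces away from its partner, a peak was present in all 7 libraries for all 6 genes. At the end facing the partner, Dlx2 and Dlx3 also had a peak in all 7, Dlx5 in 6, Dlx1 in 3, Dlx6 in 2 and Dlx4 in 1.

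Each list also carries the authors' signal for a peak, which in the standard output of the peak caller Genrich is the area enclosed by its significance curve, and a −log10 p. Neither is normalized between libraries, so ranks within a list are given. At the outer end of Dlx5, which acts in lower-jaw patterning and in bone, the peak ranked 3129 and 1732 in ectoderm, 2194 and 2603 in the Sox2-positive libraries, 2412 in incisor, 1169 in lower molar and 1215 in upper molar, where 1 is the smallest p. In each list that put it within the 6.79% of peaks with the smallest p. At Dlx4, the partner of Dlx3, the ranks were 43578 and 31291 in ectoderm, 18840 and 14845 in the Sox2-positive libraries, 13501 in incisor, 11801 in lower molar and 14049 in upper molar. Dlx4 in ectoderm replicate 1 was the 1 combination of the 42 that fell outside the top 38,000. With equal lists of 38,000 peaks the count was therefore 41 of 42, and 51.4% of all genes had a start peak in all 7, with 60.9%, 62.9%, 58.4%, 58.3%, 56.6%, 56.7% and 56.9% in the single lists in the order above.

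At the outer end of Dlx1 the signal was 3334 and 3627 in ectoderm, 2667 and 3191 in the Sox2-positive libraries, 4044 in incisor, 4410 in lower molar and 4605 in upper molar. At Dlx2 it was 3146 and 2503, 2768 and 2942, then 3663, 4567 and 4946 in the same order. At Dlx3, which acts in epidermis, hair, enamel and placenta, it was 2439 and 2179, 1011 and 1414, then 1911, 2175 and 2068. The 2 ectoderm values at Dlx3 were above all 5 postnatal ones, and so was the −log10 p, at 7.26 and 6.49 against at most 6.19. The smallest margin in signal was slight, 2179 in ectoderm replicate 2 against 2175 in lower molar. By rank these 2 peaks stood at 17.5% and 17.7% of their lists. The peak there was 1003 and 1043 bp wide in ectoderm, 1037 bp in lower molar and 1006 bp in upper molar. At Dlx1 and Dlx2 the signal in the 3 whole teeth was above the other 4 libraries, but at Dlx1 the −log10 p was not, with 7.93 in ectoderm replicate 1 and 7.84 in upper molar. At Dlx4 the signal was 816 and 611, 920 and 893, then 2205, 2293 and 1978, so the whole teeth stood apart there too. The peak there was 1563 to 1693 bp wide in the whole teeth and 688 to 754 bp in the other libraries. Ectoderm replicate 1 splits that end into 2 peaks, so the gap in area includes width. At Dlx6, the partner of Dlx5, the signal was 1694 and 1727, 842 and 894, then 2398, 2576 and 2115. The ectoderm and Sox2-positive lists split that end into 2 peaks and the whole teeth give 1, so no order of these areas is read there. The other orders describe the authors' values without a common scale.

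The 3 intervals between paired genes differed in how they were occupied. Between Dlx1 and Dlx2, 9.43 kb, an array of peaks filled at least 43.0% of the interval in all 7 libraries. Between Dlx5 and Dlx6, 9.83 kb, the ectoderm lists held a narrow low-ranked peak where the 5 postnatal lists held a wide high-ranked one. The 15.2 kb between Dlx3 and Dlx4 held 5 merged regions, of which 1 was present and high-ranked in all 7 libraries and the others varied with tissue.

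Between Dlx1 and Dlx2, peaks covered 43.0% and 47.5% of the interval in ectoderm, 52.1% and 43.8% in the Sox2-positive libraries, 44.9% in incisor, 58.7% in lower molar and 57.6% in upper molar. The molars were above the other 5 libraries, and ectoderm, Sox2-positive cells and incisor overlapped. With 38,000 peaks per list the molars, at 51.8% and 49.7%, were again above the other 5, which ran from 43.0% to 47.5%. Nearly all of it was 1 merged region at chr2:71538249-71543410, which ends within 3 bp of the annotated end of Dlx2. Its best peak was in the top 38,000 of all 7 lists, at ranks 3893 and 5440 in ectoderm, 6913 and 6162 in the Sox2-positive libraries, 6606 in incisor, 4544 in lower molar and 3274 in upper molar. The upper molar list gives it as a single peak of 4682 bp with a signal of 11863, while the lower molar list splits 4885 bp into 3 peaks, the strongest of 4529. Since the signal is an area, that gap includes the split, and the covered lengths of the molars were similar. The other region in the interval, chr2:71534736-71535485 over the antisense RNA Dlx1as, was listed in Sox2-positive replicate 1, lower molar and upper molar and in no top list.

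**Figure D2:**
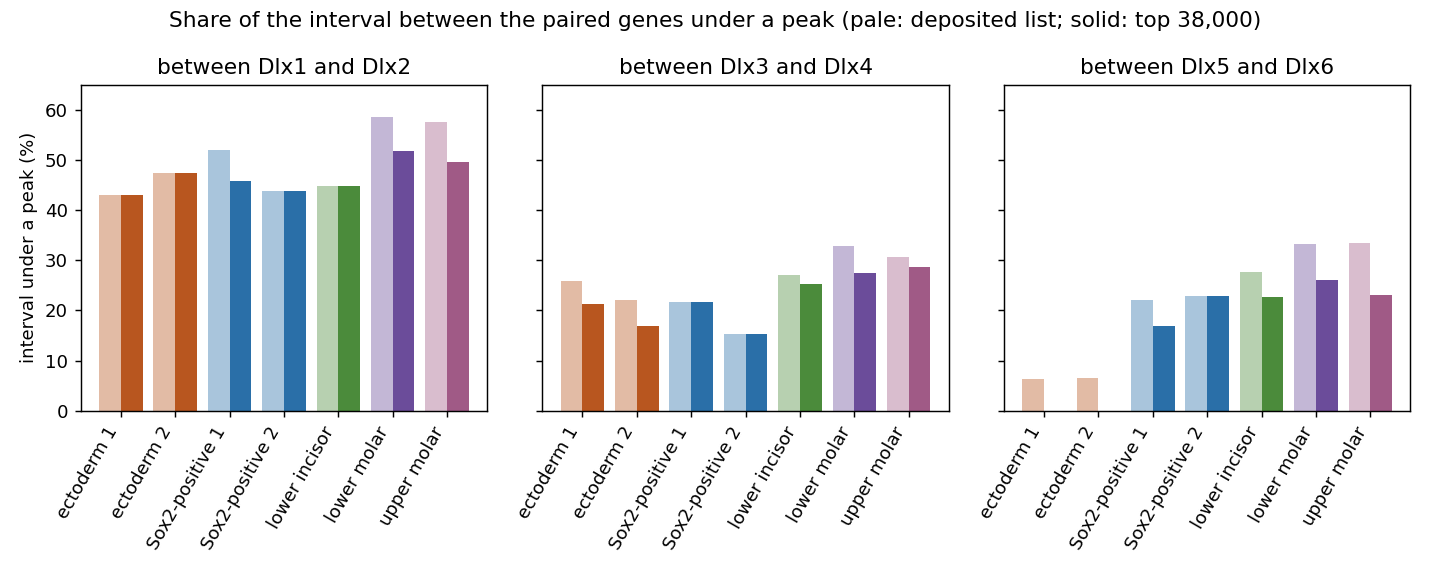
Share of the interval between the paired genes that lies under a peak (%), per library, for the deposited lists (pale bars) and the top 38,000 peaks (solid bars). Between Dlx5 and Dlx6 the ectoderm libraries stand at 6.42% and 6.6% and drop to 0 with equal lists, while the 5 postnatal libraries lie between 22.0% and 33.5% and between 17.0% and 26.0%.

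Between Dlx5 and Dlx6 the covered share was 6.42% and 6.6% in ectoderm, 22.0% and 22.8% in the Sox2-positive libraries, 27.7% in incisor, 33.3% in lower molar and 33.5% in upper molar. All 5 postnatal libraries were above both ectoderm libraries. With equal lists ectoderm had no peak between the genes, and the postnatal libraries covered 17.0%, 22.8%, 22.7%, 26.0% and 23.0% in the same order. With 2 libraries against 2, no two-sided exact permutation test of ectoderm against Sox2-positive cells could give a p under 0.33, so none is reported.

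With equal lists that difference came from 1 region, chr6:6873768-6876391, whose centre is 2.72 kb from the end of Dlx5 and which overlaps no annotated gene. Its peak was 631 and 649 bp wide in ectoderm, 1672 and 2238 bp in the Sox2-positive libraries, 2229 bp in incisor, 2558 bp in lower molar and 2259 bp in upper molar. The −log10 p was 3.65 and 3.37 in ectoderm, 5.29 and 5.53 in the Sox2-positive libraries, 5.73 in incisor, 5.85 in lower molar and 5.47 in upper molar. Neither range overlapped between ectoderm and the postnatal libraries. Within their own lists the ectoderm peaks ranked 67862 of 80850 and 46788 of 49719, and the postnatal peaks 9473 of 41829, 8000 of 38326, 13119 of 62074, 14953 of 68877 and 18365 of 67193. The last of the 38,000 peaks has a −log10 p of 4.79 in ectoderm replicate 1 and 2.94 in Sox2-positive replicate 2, with the other lists between, so equal lists use unequal p limits. Here the 5 postnatal values also exceed 4.79.

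The second region between Dlx6 and Dlx5, chr6:6870045-6871081 inside Dlx6os1, was listed in Sox2-positive replicate 1, incisor, lower molar and upper molar. It was in no ectoderm list and no top list. With full lists it therefore added to the covered share of those postnatal libraries, by 486, 489, 718 and 1036 bp in that order. Its signals were 300, 286, 599 and 605 in that order, against a list minimum of 200.

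Between Dlx3 and Dlx4, peaks covered 25.8% and 22.1% of the interval in ectoderm, 21.7% and 15.4% in the Sox2-positive libraries, 27.0% in incisor, 32.8% in lower molar and 30.6% in upper molar. The molars were the highest and Sox2-positive replicate 2 the lowest, and ectoderm and Sox2-positive cells did not overlap. With equal lists ectoderm (21.2% and 16.9%) and Sox2-positive cells (21.7% and 15.4%) did overlap, so the order rests on the longer ectoderm lists. The region next to Dlx3, chr11:95125315-95127209, was in the top 38,000 of all 7, with best ranks of 11216 and 13444 in ectoderm, 6945 and 7255 in the Sox2-positive libraries, 7798 in incisor, 5517 in lower molar and 3951 in upper molar.

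The second region, chr11:95128975-95131289, was present in all 7 lists, and in the top 38,000 of the 5 postnatal lists but of neither ectoderm list. Its best peak had a −log10 p of 3.35 and 3.29 in ectoderm, 3.93 and 3.19 in the Sox2-positive libraries, 5.22 in incisor, 6.49 in lower molar and 6.05 in upper molar. The whole teeth stood apart, but Sox2-positive replicate 2 was below both ectoderm values, and its place in the top list follows from the low p limit of that list. Part of this region, chr11:95129107-95129849, lay under a peak in all 5 postnatal lists and in no ectoderm list. Of 128642 merged autosomal regions, 422 (0.328%) were listed in all 7 libraries, in the top 38,000 of all 5 postnatal libraries and of neither ectoderm library. The Dlx windows held 2 of them, this one and the Dlx5-Dlx6 region, and both lay between paired genes. That combination was chosen after the values had been seen, so it is a description.

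The 2 regions nearer Dlx4 had a peak in both ectoderm and no Sox2-positive library. At chr11:95134047-95134700 the signal was 1616 and 827 in ectoderm, 399 in lower molar and 275 in upper molar, with no peak in the Sox2-positive libraries or incisor. Only the ectoderm peaks were in a top list, at ranks 14880 and 23173. At chr11:95137007-95137729, over the predicted gene Gm38659, the signal was 763 and 380 in ectoderm, 286 in incisor, 638 in lower molar and 620 in upper molar, with no Sox2-positive peak. The ectoderm and molar peaks were in the top lists, the molar peaks at better ranks, and the incisor peak was not. The last region of the interval, chr11:95128349-95128860, was listed in incisor (signal 526, rank 23905) and lower molar (263, rank 59575) and nowhere else.

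Over whole windows, the Dlx1-Dlx2 window held 16 and 11 peaks in ectoderm, 14 and 10 in the Sox2-positive libraries, 14 in incisor, 14 in lower molar and 15 in upper molar. The means were 13.5 ± 3.54 in ectoderm and 12.0 ± 2.83 in the Sox2-positive libraries (SD, n = 2 each), a difference smaller than either SD. The Dlx3-Dlx4 window, the most crowded, held 24 and 18, 18 and 19, then 29, 25 and 24 peaks in the same order, with means of 21.0 ± 4.24 and 18.5 ± 0.707 (SD, n = 2 each). Here too the ectoderm SD exceeded the difference. The Dlx5-Dlx6 window held 10 and 10, 9 and 9, then 17, 17 and 18 peaks. The 3 whole teeth were above the other 4 libraries there.

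**Figure D3:**
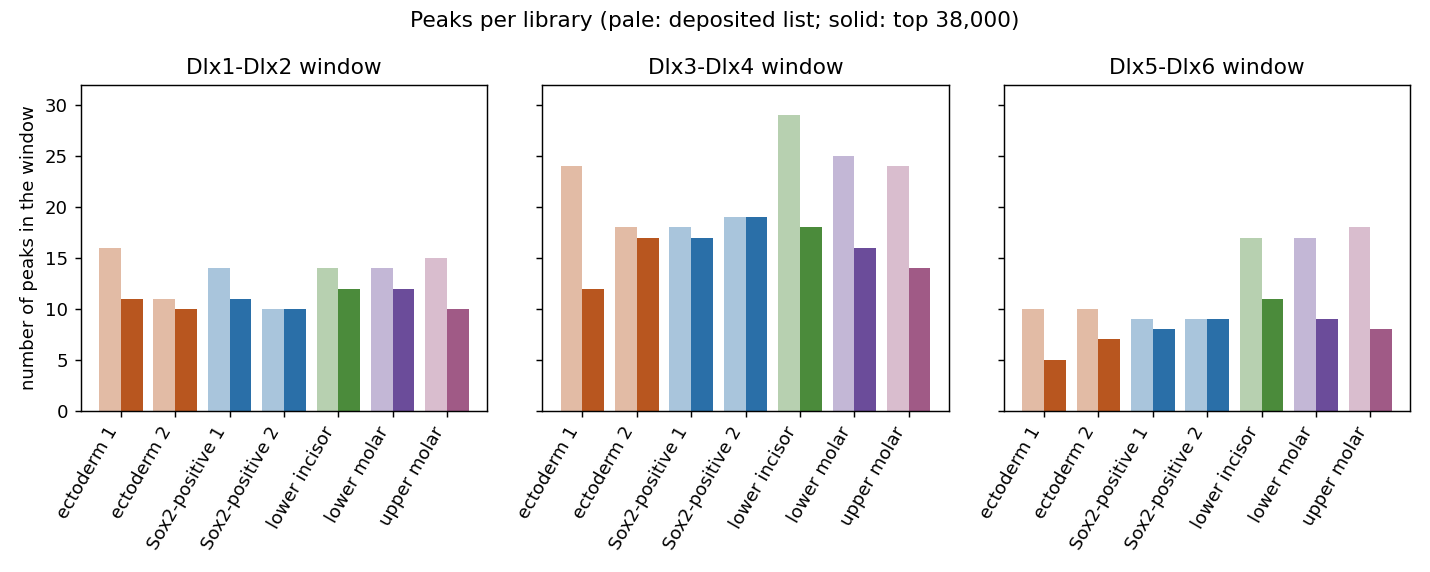
Number of peaks in each pair's window per library, for the deposited lists (pale bars) and the top 38,000 peaks of each (solid bars). In the Dlx5-Dlx6 window the whole teeth hold 17 or 18 peaks against 9 or 10 in the other libraries, and with equal lists they hold 8 to 11 against 5 to 9.

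Deposited autosomal lists ran from 38326 peaks in Sox2-positive replicate 2 to 80850 in ectoderm replicate 1, and read depth is unknown. With 38,000 peaks per list the Dlx5-Dlx6 window held 5 and 7 peaks in ectoderm, 8 and 9 in the Sox2-positive libraries, 11 in incisor, 9 in lower molar and 8 in upper molar, so the whole teeth and Sox2-positive cells overlapped. The means were 6.0 ± 1.41 in ectoderm and 8.5 ± 0.707 in the Sox2-positive libraries (SD, n = 2 each), and ectoderm lay below all 5 postnatal libraries. In the Dlx3-Dlx4 window it was 12 and 17, 17 and 19, then 18, 16 and 14, with means of 14.5 ± 3.54 and 18.0 ± 1.41 (SD, n = 2 each). In the Dlx1-Dlx2 window all 7 libraries held 10 to 12.

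Dlx genes had more peaks within 50 kb than most genes. With equal lists the median gene had 4 in each library. Dlx3 had 11 and 16 in ectoderm, 15 and 15 in the Sox2-positive libraries, 16 in incisor, 14 in lower molar and 13 in upper molar, more than 94.3% to 99.1% of the 20665 genes. Dlx5 had 5 and 7, 8 and 8, then 10, 8 and 7, nearer to the median in ectoderm replicate 1.

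Of the 78 window regions, 20 (25.6%) were present in all 7 lists, where 14.2% of all autosomal regions were. They were 6 around Dlx1-Dlx2, 10 around Dlx3-Dlx4 and 4 around Dlx5-Dlx6. A further 17 (21.8%) were in exactly 1 list, against 31.3% of all regions. Of the 78, 21 had no peak in a top list. Of the other 57, 15 had one in all 7. Of 76987 autosomal regions merged from the top lists alone, a different merge, 19.2% were in all 7. An example in a flank, picked after its values were seen, is chr11:95181648-95182744 over the predicted gene Gm11515, 35.9 kb from Dlx4, with ranks of 14241 and 10319 in ectoderm, 5430 and 2952 in the Sox2-positive libraries, 3609 in incisor, 1759 in lower molar and 1608 in upper molar. Both ectoderm ranks were worse than the 5 postnatal ranks.

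The jaw comparison set the lower first molar against the upper first molar. Of 60 regions merged from the 2 lists in the Dlx windows, 49 were shared, 4 were listed for the lower molar alone and 7 for the upper molar alone. Over all autosomes most regions were shared too, with 9352 of 75725 listed for the lower molar alone and 7815 for the upper molar alone. None of the 11 single-molar regions in the windows was in the top 38,000 of its own list. Over all autosomes only 266 of the lower-molar-only and 214 of the upper-molar-only regions were, so this says little about the Dlx windows. There was 1 library per jaw, so the difference has no replicate check and no test.

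The lower-molar-only share was 6.67% (Wilson 95% interval 2.62 to 15.9, counting error only), and over all autosomes 12.3% of 75725 regions were lower-molar-only. The upper-molar-only share was 11.7% (5.77 to 22.2), and over all autosomes 10.3% were upper-molar-only. By window the lower-molar-only regions numbered 0 around Dlx1-Dlx2, 2 around Dlx3-Dlx4 and 2 around Dlx5-Dlx6. The upper-molar-only regions numbered 3, 1 and 3. For the lower-jaw pair Dlx5-Dlx6 that is 2 against 3. The lower-molar-only share was below its background and the upper-molar-only share near it. Neighbouring regions of 1 library per jaw are not replicates, so the intervals are no test against the backgrounds.

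These 11 regions ranked low, and those named here were picked after their values were seen. The lower-molar-only peaks ranked from 52459 to 61750 of 68877 and had signals of 244 to 300. They lay in Itga3, an integrin gene in the flank of Dlx3 (chr11:95071206-95071590), between Dlx3 and Dlx4 (chr11:95128354-95128742), inside Dlx6 (chr6:6867097-6867411) and 6.05 kb beyond Dlx5 (chr6:6887993-6888241). The upper-molar-only peaks ranked from 43384 to 64508 of 67193, with signals of 219 to 475. In the Dlx1-Dlx2 window they were a pair of peaks in Metap1d, the gene next to Dlx1 (chr2:71512241-71512794 and chr2:71522794-71523377), and 1 inside Dlx2 (chr2:71543998-71544799).

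The lower incisor, which grows in the same jaw as the lower molar, was not used to choose them. It had a peak in 3 of the 4 lower-molar-only regions and in 1 of the 7 upper-molar-only regions. Over all autosomes the incisor had a peak in 49.5% of 9352 lower-molar-only regions and in 25.9% of 7815 upper-molar-only regions. The exception among the 4 was the region beyond Dlx5, which was in no other library.

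With equal lists, 34 regions were merged from the molars, of which 31 were shared, 3 were lower-molar-only (8.82%, background 10.3%) and 0 were upper-molar-only (background 10.3%). The 3 were chr11:95072867-95073306 in Itga3, chr11:95185608-95186680 in Gm11515 and chr6:6930254-6930682, 48.4 kb beyond Dlx5. Their ranks in the lower molar were 29921, 33453 and 29565, and all 3 had a lower-ranked peak in the full upper molar list. No region was restricted to the same molar in both versions of the lists. Asked after seeing the data, the count of regions in the top 38,000 of a molar and absent from the full list of the other was 0 in each direction in the windows, against 0.351% (lower) and 0.283% (upper) of all autosomal regions. At shares that low, a count of 0 in the windows says little.

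**Figure D4:**
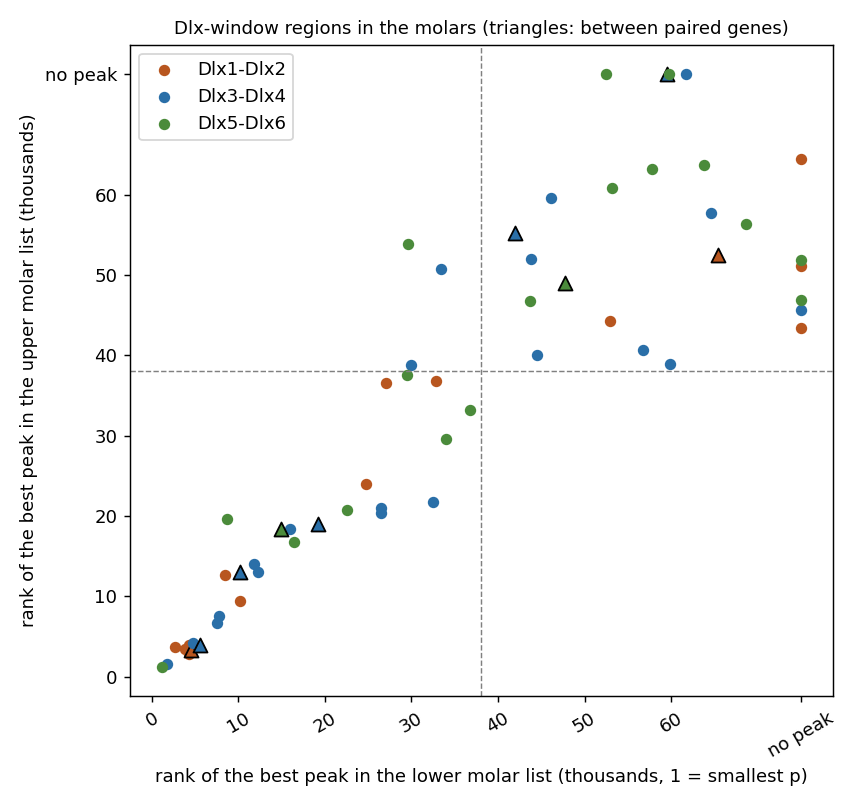
Rank of the best peak of each window region in the lower molar list (horizontal axis, in units of 1000) and in the upper molar list (vertical axis, same units), with regions lacking a peak placed at the edge marked no peak and dashed lines at 38,000. Triangles are regions between paired genes. Regions without a peak in 1 molar all lie beyond rank 38,000 in the other, and no region lies at the edge within the top 38,000.

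The base pairs under a peak in both molars, divided by those under a peak in either (the Jaccard index), were 0.783 in the Dlx1-Dlx2 window, 0.731 in the Dlx3-Dlx4 window and 0.741 in the Dlx5-Dlx6 window, beside 0.736 over all autosomes. With equal lists the values were 0.877, 0.726 and 0.838, beside 0.749. The ectoderm replicates gave 0.755, 0.732 and 0.776 with full lists, beside 0.64 over all autosomes, and the Sox2-positive replicates 0.773, 0.609 and 0.446, beside 0.562. With equal lists the ectoderm replicates gave 0.8, 0.728 and 0.78, beside 0.717. The molars of opposite jaws were thus about as alike in each window as the 2 ectoderm libraries with full lists. With equal lists the molars were more alike than those around Dlx1-Dlx2 and Dlx5-Dlx6. The Sox2-positive replicates were less alike around Dlx5-Dlx6, below their own autosomal level, also with equal lists (0.468, beside 0.566). A region picked after the fact shows it: chr6:6826941-6827503, in Dlx6os1, had a signal of 1007 and rank 6910 in replicate 2 and no peak in replicate 1.

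Ectoderm at embryonic day 11.5 was then set against Sox2-positive cells of postnatal day 2, the 2 groups with replicates. Tissue, age, sort and dissociation all differ between them and cannot be told apart. Of 62 regions in the windows, 21 were shared by all 4 libraries, a count without a matching share over all autosomes. Present in both ectoderm and neither Sox2-positive library were 8 (12.9%, Wilson 95% interval 6.69 to 23.4), against 23.1% of all autosomal regions. Present in both Sox2-positive and neither ectoderm library were 5 (8.06%, 3.49 to 17.5), against 7.78%.

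With equal lists, of 51 regions 7 were ectoderm-only (13.7%, background 18.4%) and 8 Sox2-positive-only (15.7%, background 14.4%). The order of the 2 counts therefore turned with list length. In the top list of 1 group and wholly absent from the other were 6 ectoderm-only regions (background 11.7%) and 5 Sox2-positive-only regions (background 7.08%), a comparison added after the data had been seen. Leaving out ectoderm replicate 2 raised the ectoderm-only count from 8 to 17, and leaving out Sox2-positive replicate 1 or 2 raised the Sox2-positive-only count from 5 to 9 or 12.

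Around Dlx1-Dlx2 the 2 ectoderm-only regions were both in Metap1d, which encodes a mitochondrial methionine aminopeptidase and flanks Dlx1. At chr2:71479773-71480542, 47.96 kb from Dlx1, the signal was 1951 and 1331 in the 2 ectoderm libraries, at ranks 6393 and 10478. At chr2:71494878-71495477, 32.94 kb from Dlx1, it was 1351 and 643, at ranks 13320 and 15941. No postnatal library had a peak at either. Over all autosomes 11.7% of regions were in both ectoderm libraries and in no postnatal one, and in the windows it was these 2 of 78. With equal lists it was 5 of 57 regions, against 12.8% in the different merge of the top lists alone.

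Around Dlx3-Dlx4 the leading ectoderm-only regions were the 2 between the genes described above and chr11:95105154-95105921, 14.58 kb from Dlx3, with signals of 724 and 738. All 3 had a peak in both molars. In the merge of all 7 lists, 2 of 78 regions were in both ectoderm libraries, both molars and no other library, both of them in this window, where 2.36% of all autosomal regions were. With equal lists it was 1 of 57, against 1.2% in the different merge of the top lists alone. Around Dlx5-Dlx6 they were chr6:6854264-6854581 in Dlx6os1 (signals 731 and 355) and chr6:6879381-6879660 inside Dlx5 (275 and 269), and both also had a peak in the upper molar list.

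All 5 Sox2-positive-only regions also had a peak in incisor, lower molar and upper molar. The one with the largest summed signal was chr2:71589063-71589773, 42.66 kb from Dlx2, with signals of 400 and 1023 and ranks of 25916 and 10302. Around Dlx3-Dlx4 they were chr11:95129107-95129849 between the genes (signals 478 and 244), chr11:95148730-95149238 in Dlx4os (471 and 319) and chr11:95185850-95186660 in Gm11515 (440 and 689). Around Dlx5-Dlx6 it was chr6:6830294-6830850 in Dlx6os1, with signals of 252 and 620. In the merge of all 7 lists, 4 of 78 regions were present in every postnatal and no ectoderm library, where 4.61% of all autosomal regions were. With equal lists it was 3 of 57, against 6.3% in the different merge of the top lists alone. The region between Dlx3 and Dlx4 is not among those 4, since the merge joins it to neighbouring ectoderm peaks.

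Markers moved with this comparison. Of 5 epithelial markers, Krt5, Krt14, Cdh1 and Epcam had a start peak in all 7 full lists, and the annotated start of Trp63 had none in any. With equal lists the median number of peaks within 50 kb of these 5 genes was 6 and 5 in ectoderm. It was also 6 and 5 in the Sox2-positive libraries, then 6 in incisor and 9 in each molar. At Trp63 alone the number was 15 and 12 in ectoderm and 6 and 2 in the Sox2-positive libraries. Of 5 mesenchymal markers (Prrx1, Twist1, Col1a1, Col1a2, Pdgfra), 3 and 4 had a start peak in the ectoderm libraries and all 5 did in each Sox2-positive and whole-tooth library. At Pdgfra, a growth factor receptor of mesenchyme, no ectoderm library had a start peak and all 5 postnatal libraries did. With equal lists the peaks within 50 kb of Pdgfra numbered 1 and 2 in ectoderm and 10 and 9 in the Sox2-positive libraries. In the teeth they numbered 11 in incisor, 8 in lower molar and 7 in upper molar. The median over the 5 mesenchymal genes was 2 and 2, 9 and 7, then 6, 4 and 4 in the same order. Not every gene differed: Prrx1 had 2 in each ectoderm and each Sox2-positive library. Endothelial genes had a start peak at 1 of 3 in both ectoderm and both Sox2-positive lists, and blood and immune genes at 2 of 3 in all 7. The part of other cell types in the differences between ectoderm and postnatal libraries was not tested.

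Incisor was set against the molars, again with 1 library per tooth and no test. Of 69 regions in the windows, 44 were shared by the 3 teeth, again a count without a matching share over all autosomes. In incisor and neither molar were 9 (13.0%, Wilson 95% interval 7.02 to 23.0), against 13.9% of all autosomal regions. In both molars and not in incisor were 5 (7.25%, 3.13 to 15.9), against 17.9%. Of the 9 incisor regions 6 lay around Dlx3-Dlx4. With equal lists, of 44 regions 10 were incisor-only (22.7%, background 18.5%) and 5 molar-only (11.4%, background 16.4%), and none of either was around Dlx1-Dlx2.

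In the top 38,000 of incisor and absent from both full molar lists were 4 regions (background 3.09%), named here after their values had been seen. They were chr11:95098546-95098923 (signal 434), chr11:95157895-95158272 in Dlx4os (628), chr11:95159604-95160279, 13.65 kb from Dlx4 (926), and chr6:6844608-6845211 in Dlx6os1 (607). The second was also listed in Sox2-positive replicate 2 and the third in replicate 1, and neither in both. The reverse held for 1 region (background 4.83%), chr6:6889003-6889268, 7.07 kb from Dlx5, with signals of 382 in lower molar and 432 in upper molar and no peak in the other 5 libraries.

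Regions restricted to the 3 whole teeth were 5 of 78, against 3.94% of all autosomal regions. With equal lists they were 2 of 57, against 1.77% in the different merge of the top lists alone. The 2 were chr2:71590979-71591294, at the Gm36857 promoter given above, and chr6:6908906-6909257, 27.01 kb from Dlx5. At the former the signal was 418 in incisor, 498 in lower molar and 420 in upper molar. At the latter it was 379, 678 and 707.

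The genes upstream and downstream of Dlx5 and Dlx6 were read in the same way, from lists that had been drawn up with earlier results of these data known. Of 8 genes of endothelin signalling, which switches on Dlx5 and Dlx6 in the lower arch, 7 had a start peak in all 7 full lists, where 55.7% of all genes did. The exception with full lists was Edn1, the ligand itself, which lacked it in Sox2-positive replicate 2. With equal lists it was 5 of 8, against 51.4%. Furin, a protease, then lacked the peak in ectoderm replicate 1 and upper molar, and Mef2c, a transcription factor, in ectoderm replicate 1 and both molars. With equal lists Edn1 had a start peak in the 2 ectoderm libraries and in no other, and the peaks within 50 kb of it numbered 4 and 5 in ectoderm, 0 in 4 postnatal libraries and 1 in upper molar. Among all genes 3.61% had a start peak in both ectoderm and neither Sox2-positive library with equal lists, and 6.04% with full lists.

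Among genes known to need Dlx5 and Dlx6 in the lower jaw, Hand1, Hand2, Alx4, Pitx1, Gbx2, Gsc and Nkx3-2 were read. Gsc had a start peak in all 7 full lists and none of the others named here did. With equal lists Gsc had it only in Sox2-positive replicate 2 and incisor. Start peaks differed between the molars at Alx4, a homeobox gene of facial mesenchyme, which had one in the lower and not the upper molar, and at Gbx2, another homeobox gene, which had one in the upper and not the lower molar, where 2.43% of all genes differed. With equal lists neither gene had a start peak in a molar. Pitx1, Gbx2 and Nkx3-2 had a start peak in both ectoderm and neither Sox2-positive library, and with equal lists Gbx2 and Nkx3-2 still did. With equal lists Hand2, a transcription factor of lower-jaw identity, had it in both Sox2-positive libraries and the incisor and in no ectoderm or molar library. Among all genes 0.992% were in both Sox2-positive and neither ectoderm library with equal lists. With full lists ectoderm replicate 1 also had a Hand2 start peak.

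Of 3 upper-jaw genes that Dlx5 and Dlx6 hold down (Pou3f3, Foxl2, Irx5), Irx5 had a start peak in all 7 libraries. Pou3f3 and Foxl2 had it in both ectoderm and neither Sox2-positive library, with full and with equal lists. With equal lists Pou3f3 had a start peak in upper molar and not in lower molar, where 2.48% of all genes differed between the molars, but with full lists both molars had it.

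Among homeobox genes of the tooth, Msx1, Msx2, Barx1, Lhx6, Lhx8 and Pax9 were read, and Msx1, Msx2 and Pax9 had a start peak in all 7 libraries with full and with equal lists. Lhx6 had it in the 2 ectoderm and the 2 molar lists and in no Sox2-positive or incisor list, and in no top list. With equal lists Barx1, a molar-field gene, had it in the molars and in no other library, but with full lists ectoderm replicate 1 had it too. Of 8 autosomal genes tied to Dlx3 in epidermis and enamel, Gata3 had a start peak in all 7. Ambn, which encodes the enamel matrix protein ameloblastin, had it in all 5 postnatal libraries and in neither ectoderm library, where 0.397% of all genes were in both Sox2-positive and neither ectoderm library. With full lists Klk4, an enamel protease, had a start peak in the upper and not the lower molar, and with equal lists in neither. With equal lists Grhl3, an epidermal transcription factor, and Mmp20, another enamel protease, had one in the lower and not the upper molar, and with full lists in both.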

How the data were processed

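Omni-ATAC libraries from mouse tissues were analysed from 7 deposited narrowPeak lists, 1 per library, grouped by the sample titles. The submitters' processing notes name FastQC, Trimmomatic, Bowtie2, deepTools and Genrich and the build mm10, and their order, versions, options and transposase offset are not given in the sources used here. The authors' deposited signal, in Genrich's standard output an area of significance, had a minimum of about 200, the deposited −log10 value is of the p-value, and the deposited summit offset gave each summit. None is normalized between libraries, and the lists hold no read counts, so depth is unknown and no count model or test across regions was used. Wilson intervals at 95% and the SD of 2 replicates cover counting and library spread, which may be technical.

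Lists were cut to autosomes and used whole and as the 38,000 peaks with the smallest p (ties by signal). Genes and promoters came from RefSeq tables of GRCm38.p6. Dlx1 and Dlx2 starts came from the promoter table, and for Dlx3 to Dlx6 either gene end was used. Regions were assigned by their centre, were merged at 1 bp, and belonged to a replicated group if in both libraries and were absent if in neither. Python 3.11.15 with pandas 2.3.3, numpy 2.4.6, statsmodels 0.14.6 and matplotlib 3.10.9 were used. Merging was tested on simulated regions that lay too far apart to join, so the joining of neighbouring peaks was not tested. Named were all 6 Dlx genes, every region between a pair, regions in 1 molar (individually if so in the top lists), the 3 per window with the largest summed signal for ectoderm against Sox2-positive cells, listed genes whose start peak differed, and further regions where the text says so. Some listed genes are not reported here. Members and lists were chosen with earlier results of these data known. Alternatives were ranking by signal, the 50% with the smallest p, 50% coverage, 200 bp summit windows, flanks of 25 and 100 kb, start distances of 500 bp and 2.5 kb, and each replicate left out.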

Additional observations from a re-analysis of the deposited data

How the results depend on the processing

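The mean number of peaks per library was 13.4 around Dlx1-Dlx2, 22.4 around Dlx3-Dlx4 and 12.9 around Dlx5-Dlx6. It moved by over 1.5 times to 7.86 (Dlx1-Dlx2) with 25 kb flanks, to 35.6 (Dlx3-Dlx4) with 100 kb flanks, to 8.14 and 8.57 (Dlx5-Dlx6) with the top 38,000 by −log10 p and by signal, and to 11.7 (Dlx3-Dlx4) and 5.71 (Dlx5-Dlx6) with the 50% of peaks with the smallest p. Leaving out each replicate in turn gave 13.0 to 14.0, 22.2 to 23.2 and 13.3 to 13.5. The 4 lower-molar-only regions became 2 by signal, 9 with summit windows and 10 with 100 kb flanks, and the 7 upper-molar-only regions became 0 in the top lists by −log10 p, 2 by signal and 1 with the 50% list. The 5 Sox2-positive-only regions became 8 in the top lists, 2 with the 50% list, 2 with 25 kb flanks and 12 with 100 kb flanks. Without 1 replicate they ranged from 5 to 12, and the 8 ectoderm-only regions from 9 to 17. The 9 incisor-only regions became 4 with the 50% list, and the 5 molar-only regions 10 with 100 kb flanks. Requiring a peak in the top list of the one and none in the full list of the other, a choice made after seeing the data, gave 0 lower-molar-only, 0 upper-molar-only, 4 incisor-only and 1 molar-only regions. Fewer peaks, a wider or narrower window, or fewer libraries to satisfy make up these settings, and no other cause was tested. Of these counts and means 61 values under an alternative stayed within 1.5 times of the reported one and 25 did not. Start peaks stayed at 42 of 42 within 500 bp and 2.5 kb. No paired analysis was possible because these results come from no test, although ectoderm and Sox2-positive libraries share replicate numbers. Depth is unknown, so a missing peak is not evidence of closed chromatin, and whole teeth have no replicates.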

Other observations

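The genes whose number of peaks within 50 kb, in equal lists of 38,000, ran most like that of a Dlx window over the 7 libraries were looked up outside 500 kb of the pair. For Dlx1-Dlx2 they were Lmln (Pearson r 0.963), Arid5a (0.918) and Pmf1 (0.907) among 11810 genes. For Dlx3-Dlx4 they were Lcn2 (0.979), which had 7, 9, 9, 10, 10, 9 and 8 peaks in the order ectoderm 1 and 2, Sox2-positive 1 and 2, incisor, lower molar and upper molar, then Calhm2 (0.961) and Calhm1 (0.957), which are neighbours, among 11800. For Dlx5-Dlx6 they were Amz1 (0.978), Ltbp3 (0.972) and Ciz1 (0.97) among 11819, of which 148 genes had an r of 0.9 or more. These values share the same 7 lists and p limits and describe small counts.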
